A study of Mus musculus with 8 samples.

Results

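The calcium/calmodulin-dependent kinase genes described here are the 10 genes *Camk2a*, *Camk2b*, *Camk2d*, *Camk2g*, *Camk4*, *Camk1*, *Camk1d*, *Camkk1*, *Camkk2* and *Camkv*. They were chosen by name from this kinase family, out of 38031 genes with counts. All 10 were among the 9959 genes that passed the filter on low counts (above 8 CPM, the counts scaled to library size, in 4 libraries or more). RNA was sequenced from the primary motor cortex (M1) of male Swiss Webster mice. The animals were injected at postnatal day 21 to 25 with a lentivirus carrying either a *Fezf2 shRNA* (4 libraries) or a *non-silencing shRNA* control (4 libraries), and the tissue was taken at postnatal day 49 to 53. Both viruses also carried mCherry, and a *Synapsin I* promoter drove reporter and shRNA together, so that transcription of the shRNA was directed to neurons. The dissected tissue was bulk M1 guided by mCherry, and it also held untransduced neurons and glia.

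Calcium/calmodulin-dependent kinases are serine/threonine kinases that are switched on when calcium-loaded calmodulin binds them. The 4 *Camk2* genes encode the α, β, δ and γ subunits of CaMKII, a multi-subunit enzyme that is abundant at excitatory synapses and is known for its part in synaptic plasticity. CaMKI and CaMKIV form a separate cascade, in which a CaMK kinase phosphorylates them, and CaMKIV acts largely in the nucleus on factors such as CREB. *Camkv* encodes a kinase-like protein of the same family that is held to have no catalytic activity.

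*Fezf2*, the gene the shRNA targets, had 688, 767, 735 and 702 normalized counts in the control libraries and 621, 583, 568 and 592 in the *Fezf2 shRNA* libraries. Each treated library was below each control, with a log2 fold change (LFC) of -0.29 (SE 0.078, adjusted p = 0.0824, edgeR quasi-likelihood test with Benjamini-Hochberg adjustment). The difference did not pass the threshold used throughout, an adjusted p of at most 0.05 with an LFC of at least 0.2 in size. Its unadjusted p was 0.0035 (edgeR), and the exact permutation test gave p = 0.0286, the smallest that 4 against 4 libraries allow. The shRNA's sense sequence is shown with its longest match to *Fezf2* and to the kinase genes with the longest runs, since a kinase transcript with a full match would itself be a target. Capitals mark the bases that also occur in an annotated transcript of the gene (GENCODE M21, GRCm38).

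*Fezf2*: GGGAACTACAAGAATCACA
*Camk2d*: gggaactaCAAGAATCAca
*Camkk1*: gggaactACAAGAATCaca
*Camkk2*: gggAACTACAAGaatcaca

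All 19 bases were found in *Fezf2*, in its coding sequence. The longest run in a kinase transcript was 9 bases. It lay in the 3′ UTR of *Camk2d* and *Camkk2* and in the coding sequence of *Camkk1*. The other 7 kinase genes held runs of 7 or 8 bases. Whether such short runs affect a transcript was not tested.

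The libraries had 54684016 to 58003814 counts on genes, taking 1 transcript per gene. Summed over 5 markers, excitatory cortical neurons had 727 to 909 CPM in controls and 757 to 831 CPM in *Fezf2 shRNA* libraries, and none of their markers was at 0. The 5 oligodendrocyte markers had LFCs of -0.58 to -0.31. Their sum was 1057 to 1924 CPM in controls and 795 to 1312 CPM in treated libraries, with overlap, and none of the 5 passed the threshold in edgeR, although 3 had an unadjusted p under 0.05 and 2 passed in DESeq2. The part of this difference in the kinase values was not tested. In bulk tissue, fewer cells of a type and less RNA per cell cannot be told apart.

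Over whole genes, *Camk2d* was the only kinase gene past the threshold, and it rose. Of the 10 genes, 1 was higher, 0 were lower and 9 did not pass, against 2.09% of all genes tested (195 higher and 13 lower). At an unadjusted p under 0.05, 2 kinase genes were higher (*Camk1d* and *Camk2d*) and 0 were lower, against 19.6% of all genes in either direction. The same 2 passed in DESeq2, where 7.55% of all genes did. The LFC was above 0 in 5 of 10 kinase genes and in 4319 of all 9959 genes. The median LFC was 0.03 over the kinase genes and -0.03 over all genes.

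**Figure D1:**
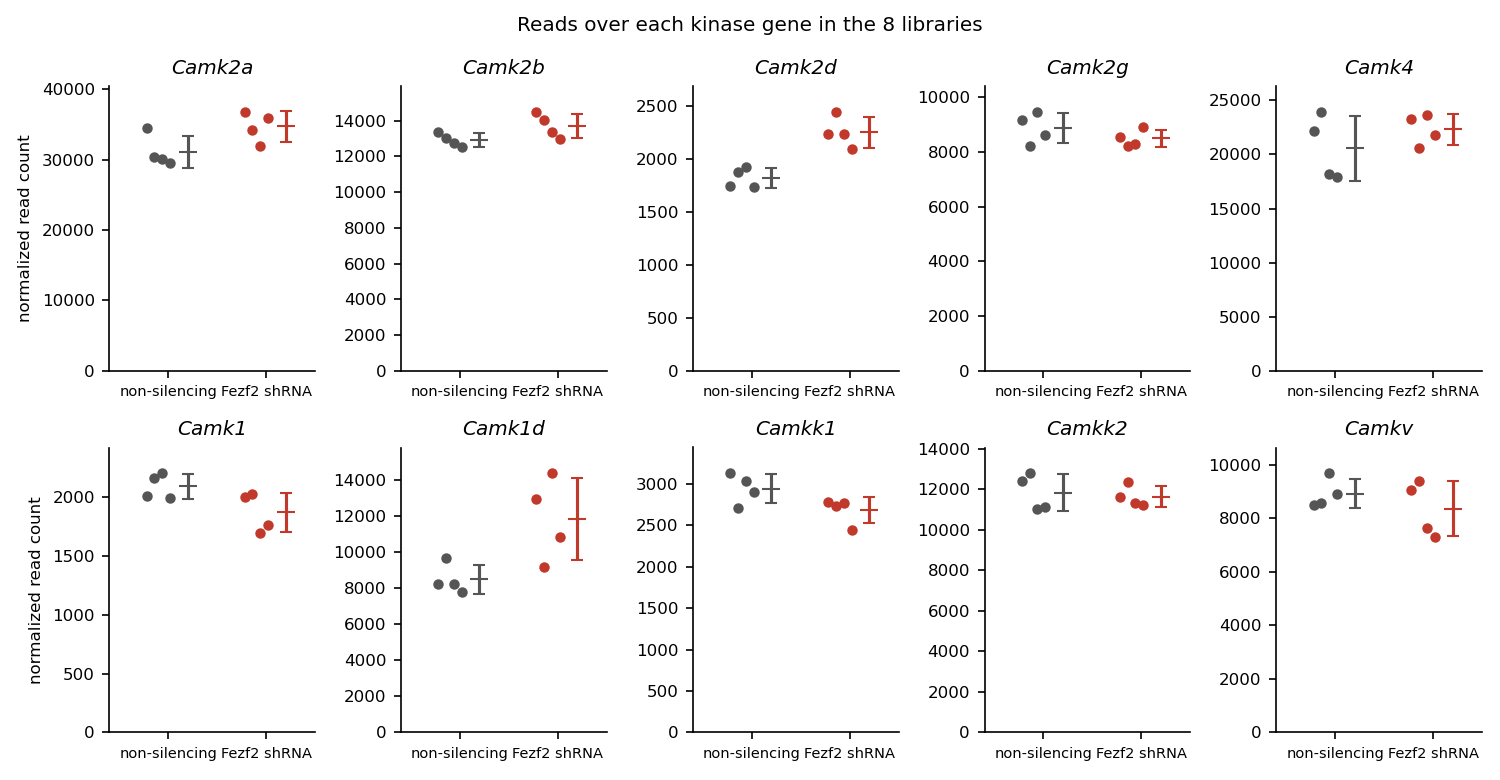
Normalized read counts (y axes start at 0) of the 10 kinase genes in the 4 non-silencing shRNA and 4 Fezf2 shRNA libraries. Points are libraries in replicate order, and the bar beside them is the mean ± SD (n = 4). The treatments are apart only in Camk2d, and in Camk1d replicate 2 of the treated libraries lies among the controls.

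*Camk2d*, which encodes the δ subunit of CaMKII, had 1741, 1877, 1926 and 1732 normalized counts in controls and 2235, 2443, 2235 and 2090.0 in *Fezf2 shRNA* libraries. The lowest treated library was above the highest control. Its LFC was 0.31 (SE 0.069, adjusted p = 0.0497), from 1819 ± 97.2 to 2251 ± 145 (SD, n = 4), and the exact permutation test gave p = 0.0286, the smallest that 4 against 4 libraries allow. *Camk2d* was the only gene of the 10 with no overlap, against 11.8% of all genes tested. The adjusted p was at the threshold. It rose above 0.05 when any 1 of the 8 libraries was left out (0.0503 to 0.141, with LFCs of 0.27 to 0.34).

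*Camk2a*, the α subunit and a marker of forebrain excitatory neurons, had 34524, 30331, 30035 and 29478 normalized counts in controls and 36773, 34135, 31925 and 35975 in treated libraries. Only control replicate 1 reached into the treated range. The LFC was 0.16 (SE 0.077, adjusted p = 0.281). *Camk2b*, the β subunit, which also binds actin, had 13386, 13047, 12743 and 12516 normalized counts in controls and 14495, 14026, 13356 and 12975 in treated libraries. The ranges overlapped, and the LFC was 0.09 (SE 0.061, adjusted p = 0.449). *Camk2g*, the γ subunit, had 9158, 8217, 9460 and 8632 normalized counts in controls and 8548, 8222, 8278 and 8911 in treated libraries. All 4 treated values lay inside the control range, and the LFC was -0.06 (SE 0.062, adjusted p = 0.593).

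As a share of the reads on the 4 *Camk2* genes, each over its widest counted interval, *Camk2a* took 54.1% to 59.4% in controls and 58.1% to 60.7% in treated libraries. *Camk2b* took 26.7% to 29.6% in controls and 25.1% to 27.8% in treated libraries. *Camk2g* took 11.0% to 12.8% in controls and 10.1% to 10.9% in treated libraries, with no overlap. The nearest values were 10.99% in control replicate 2 and 10.94% in *Fezf2 shRNA* replicate 4. A share also moves with the reads of the other *Camk2* genes, and the treated counts of *Camk2g* itself lay inside the control range. *Camk2d* took 2.72% to 3.46% in controls and 3.28% to 3.93% in treated libraries. These shares count intronic reads and are not shares of mRNA or protein.

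*Camk1d*, which encodes CaMKIδ, had the largest LFC of the 10 genes but did not pass the threshold. It had 8220 (replicate 1), 9671, 8258 and 7822 normalized counts in controls and 12967, 9207, 14380.2 and 10872 in treated libraries. Replicates 1, 3 and 4 of the treated libraries were above every control, whereas replicate 2 was below control replicate 2. The LFC was 0.48 (SE 0.127, adjusted p = 0.0782), and the treated libraries had an SD of 2280 counts against 810 in controls. Without *Fezf2 shRNA* replicate 2 the LFC was 0.59 and the adjusted p was 0.0294. With any other library left out, the LFC was 0.38 to 0.55 and the adjusted p 0.0503 to 0.185.

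*Camk1*, which encodes CaMKIα, had 2010.5, 2168, 2205 and 1995 normalized counts in controls and 2001, 2030.1, 1700 and 1769 in treated libraries. Treated replicates 3 and 4 were below every control, and replicates 1 and 2 lay inside the control range. The LFC was -0.16 (SE 0.076, adjusted p = 0.273). The 3′ end of *Camk1* overlaps *Ogg1* on the opposite strand, and no strand setting is given for the counting, so that reads of the 2 genes cannot be told apart there. *Camk4*, which encodes CaMKIV, had 22161, 23929, 18226 and 17889 normalized counts in controls and 23264, 20555, 23684 and 21777 in treated libraries. Controls varied more than treated libraries, and the LFC was 0.12 (SE 0.102, adjusted p = 0.530).

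Neither upstream kinase passed the threshold. *Camkk1*, which encodes the CaMK kinase α, had 3126, 2714, 3029 and 2900.3 normalized counts in controls and 2778, 2730 (replicate 2), 2773 and 2446 in treated libraries. Only control replicate 2 reached into the treated range, and the LFC was -0.13 (SE 0.068, adjusted p = 0.295). *Camkk2*, the CaMK kinase β, which also activates AMP-activated protein kinase, had 12409, 12777, 11002 and 11139 normalized counts in controls and 11594, 12364, 11332 and 11205 in treated libraries. All 4 treated values lay inside the control range, and the LFC was -0.03 (SE 0.070, adjusted p = 0.862). *Camkv* had 8474, 8568, 9668 and 8895 normalized counts in controls and 9056, 9372, 7648 and 7303 in treated libraries. Treated replicates 3 and 4 were below every control, replicates 1 and 2 lay inside the control range, and the LFC was -0.09 (SE 0.088, adjusted p = 0.571). In exact permutation tests of the 9 genes other than *Camk2d*, p was 0.0571 to 0.800.

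Levels were compared between genes per kb of the widest counted interval, introns included. In controls *Camk2a* was highest, with 684 ± 65.3 normalized reads per kb (SD, n = 4), followed by *Camkv* with 635 ± 38.7, and the ranges of the 2 overlapped. *Camkk2* (245 ± 18.5), *Camk2b* (225 ± 6.74) and *Camk1* (212 ± 10.9) came next, and each overlapped its neighbour. *Camk2g* had 150 ± 9.32, *Camkk1* 128 ± 7.73 and *Camk4* 83.2 ± 12.03 reads per kb, without overlap between neighbours. *Camk1d* had 20.2 ± 1.92 and *Camk2d* 9.70 ± 0.540 reads per kb. The 2 genes with the largest LFCs were thus those with the fewest reads per kb, and the order of the 10 genes was the same in *Fezf2 shRNA* libraries.

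**Figure D2:**
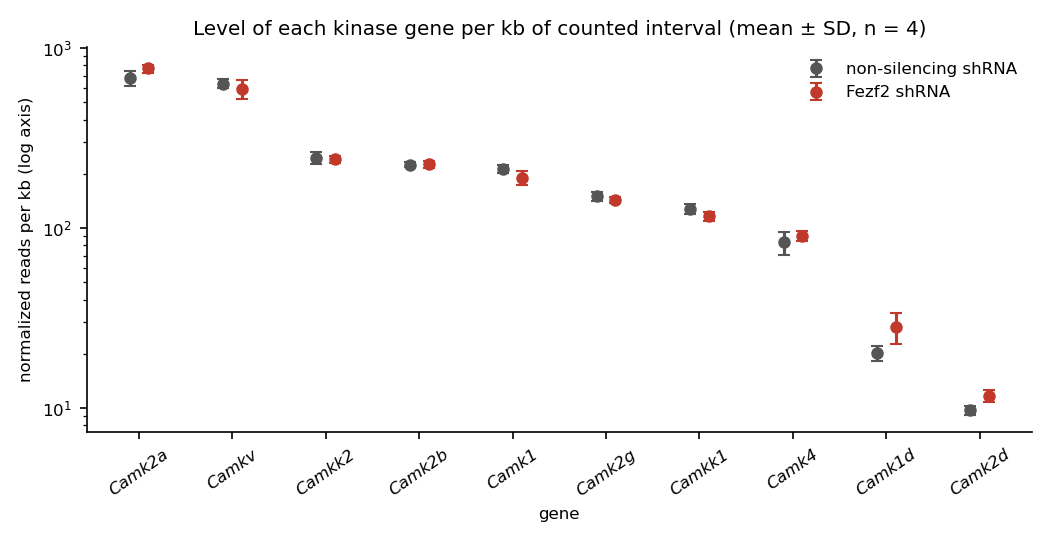
Normalized reads per kb of the widest counted interval (log axis) for the 10 kinase genes, as mean ± SD of 4 libraries per treatment. In controls the levels run from 684 reads per kb in Camk2a to 9.70 in Camk2d.

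The LFCs of the kinase genes were ordered much as the spans of the genes were, and the LFCs of all genes also moved with span. The 3 kinase genes under 30 kb (*Camk1*, *Camkk1* and *Camkv*) had LFCs of -0.16 to -0.09, and the median of the 4857 genes of this span was -0.10. The 4 kinase genes of 30 to 100 kb (*Camk2a*, *Camk2b*, *Camk2g* and *Camkk2*) had LFCs of -0.06 to 0.16, beside a median of 0.01 over 3172 genes. The 3 kinase genes over 200 kb (*Camk2d*, *Camk4* and *Camk1d*) had LFCs of 0.12 to 0.48, beside a median of 0.24 over 849 genes, of which 15.2% passed the threshold.

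With a gene-length offset, a smooth curve per library that removes the dependence on span, no kinase gene passed, and 0.0201% of all genes did (2 of 9959). *Camk2d* then had an LFC of 0.11 (SE 0.075, adjusted p = 0.622) and *Camk1d* one of 0.22 (SE 0.102, adjusted p = 0.476). *Camk2a* had 0.12 (SE 0.075, adjusted p = 0.593). *Camk4* turned to -0.07 (SE 0.085, adjusted p = 0.796). What sets the dependence on span was not tested.

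**Figure D3:**
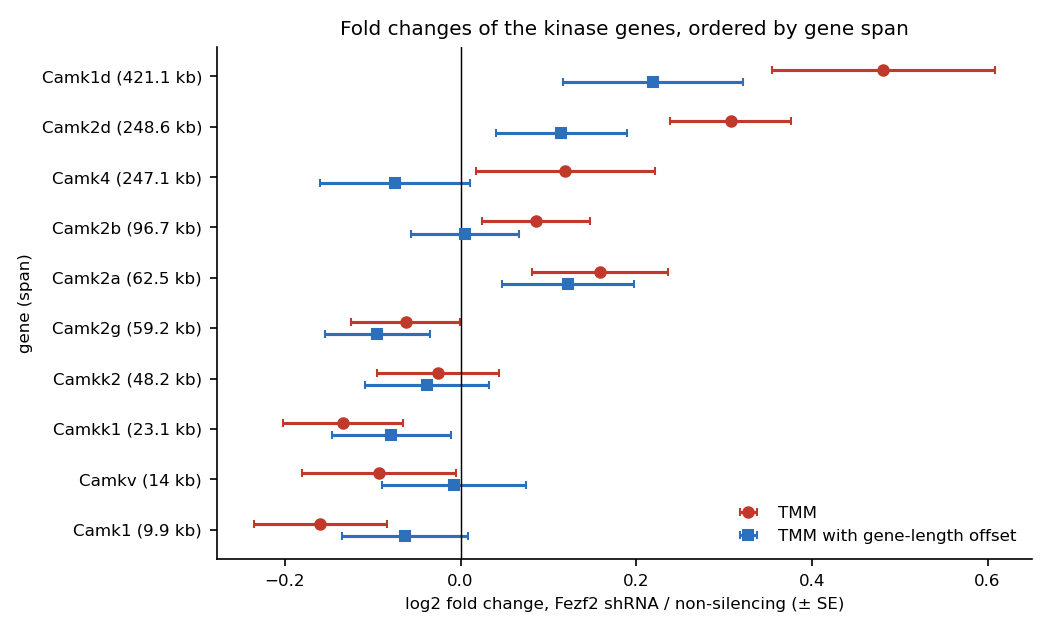
LFC ± SE of the 10 kinase genes (Fezf2 shRNA over non-silencing shRNA, n = 4 each), ordered by gene span, with TMM normalization (circles) and with the gene-length offset added (squares). Camk1d and Camk2d, the longest genes, have the largest LFCs with TMM (0.48 and 0.31), and with the offset Camk4 lies below 0 at -0.07.

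The counts were made per transcript over its whole genomic interval, so that counts can be compared between stretches of a gene. Whether reads that span an intron were also counted in intervals inside it was not tested. The 10 genes had 63 counted transcripts, and in 23 of them the treatments did not overlap, against 11% of the 52669 counted transcripts of all genes with a mean of at least 100 reads. Of these, 19 belonged to *Camk2d*, which had 22, and 1 each to *Camk2a*, *Camk2b*, *Camk1* and *Camk1d*. Intervals of 1 gene share most of their reads and are not separate measurements. The shorter interval nested in the longest was first compared with the remainder of the longest in the 6 genes that allowed it (*Camk2a*, *Camk2b*, *Camk2d*, *Camk1*, *Camk1d* and *Camkk1*). With the narrowest nested interval, 0 of 12 parts passed the edgeR threshold, against 1.69% of all such parts, and 4 had an unadjusted p under 0.05, against 15.8% of all such parts. The log2 ratio of remaining to shorter-interval reads differed between treatments by -0.05 to 0.23 in the 6 genes, with exact permutation p of 0.171 to 0.771. With the widest nested interval, the shorter part rose in *Camk2a*, *Camk2d* and *Camk1d*, 3 of 12 parts against 2.84% of all parts.

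In *Camk2d* (chr3:126597308-126843218 for the transcript ENSMUST00000171289), LFCs over all intervals, as log2 ratios of mean normalized counts, were 0.06 to 0.43. The highest value belonged to an interval of 88.1 kb at the 5′ end, with 477, 545, 545 and 493 normalized counts in controls and 644, 807, 720 (replicate 3) and 600 (replicate 4) in treated libraries. All treated libraries were above all controls there. The 3 intervals with overlap lay together in the 3′ part of the gene. Over the widest nested interval of 222 kb, *Camk2d* rose with an LFC of 0.29 (SE 0.073, adjusted p = 0.0486). The transcript with the lowest number, ENSMUST00000066452, spans 40.2 kb in the annotation but has the same reads in every library as the 246-kb interval of ENSMUST00000171289, so the value given for *Camk2d* was counted over a longer interval than its annotation. In all, 3 of the 63 transcripts, each of *Camk2d*, had reads at odds with their annotated interval. With the longest transcript in its place, an alternative added after seeing the data, the LFC was 0.27 (SE 0.072, adjusted p = 0.0824).

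In *Camk1d* (chr2:5293457-5714515, minus strand), the 377-kb interval of ENSMUST00000114987 had 4223, 4815, 4773 and 3657 normalized counts in controls and 8768, 4873, 9249 and 6143 in treated libraries. All treated libraries were above all controls, replicate 2 by the least. The interval rose with an LFC of 0.73 (SE 0.170, adjusted p = 0.0404). The remaining 43.9 kb, the first part of the gene together with its 3′ end, had 3997, 4857, 3485 and 4165 normalized counts in controls and 4199, 4334, 5132 and 4729 in treated libraries, with overlap. Its LFC was 0.16 (SE 0.1001, adjusted p = 0.441). The log2 ratio of remaining to shorter-interval reads was lower by 0.53 in treated libraries on average, a difference of -0.53 with an exact permutation p of 0.0857.

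The largest ratio within the 377-kb interval was in its 3′ portion, a stretch picked after its values were seen and given with no test. Between the 3′ bound of ENSMUST00000114987 and that of ENSMUST00000130470 (chr2:5298887-5445069, 146 kb of introns and exons), controls had 1819, 1783, 1854 and 1728 normalized counts. The treated libraries had 4380 (replicate 1), 2002, 5659 and 2651 normalized counts. Controls stayed within a narrow range here, and the treated libraries ranged widely above it, with replicates 1 and 3 highest. The log2 ratio of the means was 1.03. The values are a difference of 2 intervals, of which the shorter reaches 354 bases past the other at the 5′ end.

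In *Camk2a* (chr18:60925618-60988152), a 28.7-kb interval in the 5′ part of the gene had 3670 (replicate 1), 3901, 3948 and 3705 normalized counts in controls and 4415, 4621, 4720 (replicate 3) and 4484 in treated libraries. The treatments did not overlap, and the interval rose with an LFC of 0.26 (SE 0.064, adjusted p = 0.0485). The remainder of the gene had an LFC of 0.16 (SE 0.088, adjusted p = 0.361), and the log2 ratio of the 2 parts did not separate the treatments (difference -0.09, exact permutation p = 0.543). Small RNA genes *Mir7220* and *Mir6982* are annotated in *Camk2a* introns with a mean of 633 and 1579 reads per library over 60 and 68 bases. Whether these are reads of *Camk2a* that span the introns was not tested.

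In *Camk2b* (chr11:5969644-6065748, minus strand), values differed in sign along the gene. A 54.0-kb interval at the 5′ end had 1471, 1700 (replicate 2), 1670 (replicate 3) and 1712 normalized counts in controls and 1734, 2013, 1771 and 2202 in treated libraries. The treatments did not overlap, and the log2 ratio of the means was 0.24. A 14.5-kb interval at the 3′ end had 14462, 14909, 14847 and 14159 normalized counts in controls and 13773, 14662, 13605 and 13459 in treated libraries, with overlap and a log2 ratio of -0.07. With the widest nested interval, the log2 ratio of remaining (3′) to shorter-interval (5′) reads differed by -0.21 (exact permutation p = 0.0571). Over the widest transcript of *Camk2b* the LFC was 0.00 (0.0021 before rounding), beside 0.09 over the transcript used for the gene.

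**Figure D4:**
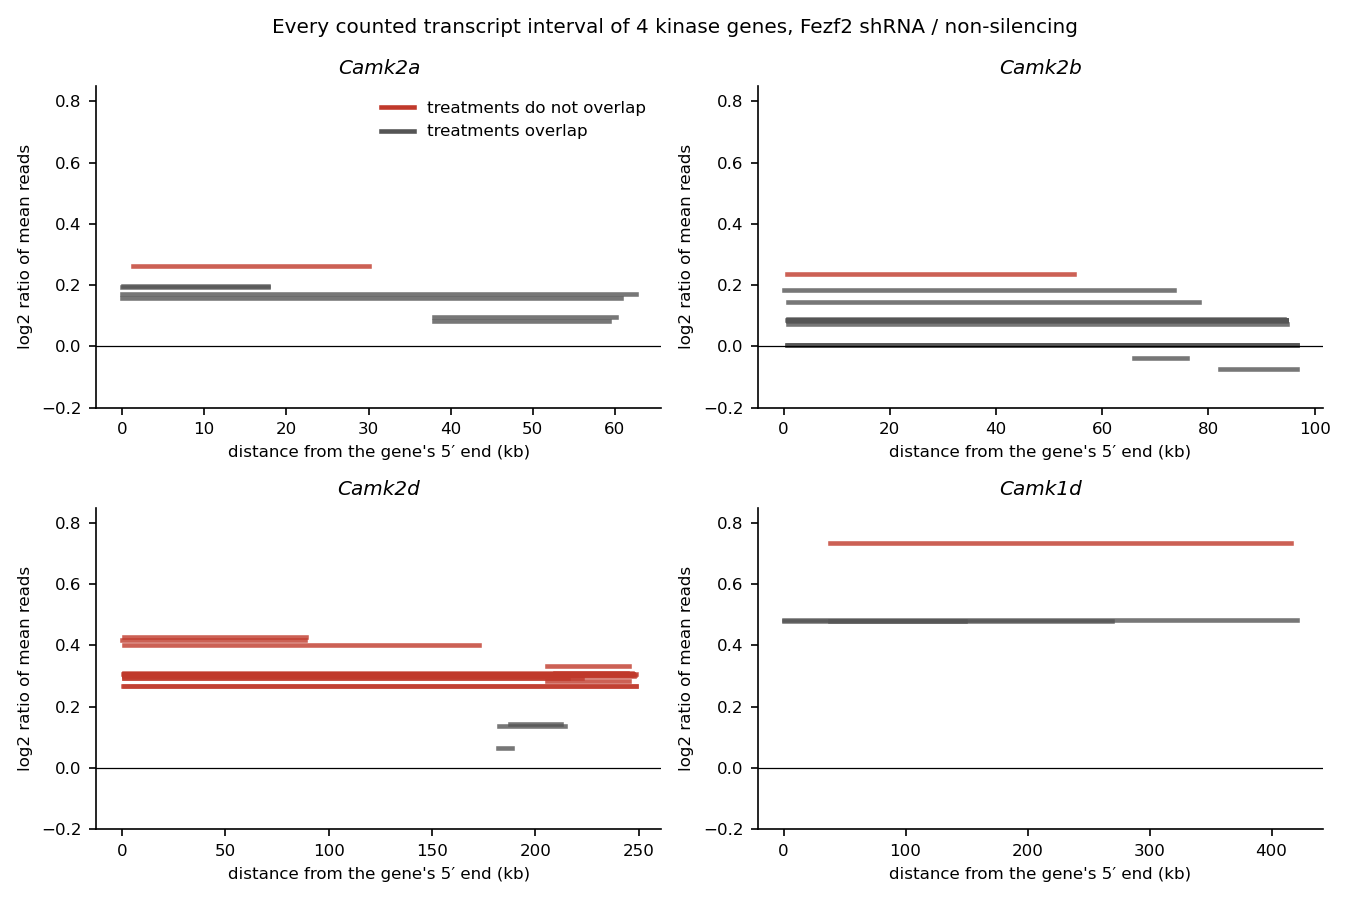
Each counted transcript interval of Camk2a, Camk2b, Camk2d and Camk1d, drawn from its start to its end in kb from the gene's 5′ end, at the height of its log2 ratio of mean normalized counts (Fezf2 shRNA over non-silencing shRNA). Red lines mark intervals whose 4 treated and 4 control libraries do not overlap. In Camk2b the 5′ intervals lie above 0 and the 3′ intervals below it, and in Camk1d the 377-kb interval lies at 0.73.

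Parts that are largely exonic (at least 80% of their bases) and largely intronic (at most 5% exonic bases) were compared as an alternative added after seeing the data. The shares are of bases and not of reads, and a largely intronic part also counts the reads of the exons inside it. Among largely intronic parts, *Camk2d* and *Camk1d* rose, 2 of the 5 kinase genes with such a part, against 10.5% of 4283 intronic parts of all genes. The intronic part of *Camk2d* was 210 kb wide, with 4.71% exonic bases. How many of its reads came from those exons was not tested. This part had 1565, 1670.2, 1723 and 1519 normalized counts in controls and 1944, 2122, 2000.4 and 1886 in treated libraries. All treated libraries were above all controls, with an LFC of 0.30 (SE 0.075, adjusted p = 0.0365). Its exonic part, 2.05 kb, had 491, 574, 626 and 657 normalized counts in controls and 590.4, 752, 655 and 581 in treated libraries. These overlapped, with an LFC of 0.14 (SE 0.115, adjusted p = 0.507). The difference between exonic and intronic parts was not itself tested.

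For *Camk1d* the whole interval counted as intronic, with 1.76% exonic bases, and it passed with an LFC of 0.48 (SE 0.123, adjusted p = 0.0374, edgeR) among such parts. These are the same counts as for the whole gene, which did not pass among genes (adjusted p = 0.0782, edgeR). Only the fit and the adjustment over intronic parts differ, so this is no further measurement. The part of *Camk4* was also its whole interval. The intronic parts of *Camk4* (LFC 0.12), *Camk2a* (0.08) and *Camk2b* (0.14) did not pass. Among largely exonic parts, 0.602% of 2327 passed, and 0 of 3 kinase parts did. These were parts of 1.76 kb in *Camk2a*, with an LFC of 0.21 (SE 0.099, adjusted p = 0.228), of 2.75 kb in *Camk2b*, with an LFC of -0.11 (SE 0.070, adjusted p = 0.365), and of 2.05 kb in *Camk2d*. Each lay mostly at the 3′ end of its gene and held some bases of the 5′ end. None of the 3 had an unadjusted p under 0.05, and no other tool was run on these parts. The median LFC was -0.09 over all exonic and 0.14 over all intronic parts.

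The coding sequences of the CaMKII subunits are alike, and reads within an identical stretch cannot be assigned to 1 gene. The longest identical runs between pairs of *Camk2b*, *Camk2d* and *Camk2g* transcripts are shown to mark how short such stretches are, and all bases of each run are shared.

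*Camk2b* and *Camk2g*: agagagtactacagtgaagctgatgccag
*Camk2b* and *Camk2d*: tacagtgaagctgatgccagtca
*Camk2d* and *Camk2g*: atcaacaatggggactttgaggc

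The runs are of 29, 23 and 23 bases and lie in the coding sequence of both genes of each pair. *Camk2a* shared runs of 34 bases with *Camk2b* and *Camk2d* and of 29 bases with *Camk2g*. The runs of 34 bases lie in the 3′ UTR of *Camk2a* and in noncoding transcripts of *Camk2b* and *Camk2d*. The run shared with *Camk2g* lies in the coding sequence of both genes. The length of the reads was not given in the sources used here.

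Across the 8 libraries, the genes whose log2 CPM was most like that of *Camk2d* were *Nwd2* (Pearson's r = 0.983), *Dlg1* (0.967), which encodes a synaptic scaffold protein, and *Pdzrn3* (0.966). Those most like *Camk2a* were *Heg1* (0.970), *Zfp994* (0.957) and *Erap1* (0.938). These are descriptions over 8 libraries that share depth and treatment, picked as the highest among all genes tested. Among the kinase genes, r was highest between *Camk1* and *Camkv* (0.840) and between *Camk2a* and *Camk2b* (0.734), and lowest between *Camk1* and *Camk1d* (-0.658).

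Other genes of the pathway were taken from 5 lists with 41 genes, of which 37 were tested. *Lrrc7*, which encodes densin-180, a postsynaptic protein that binds CaMKII, was the only gene past the threshold, and it rose. It had 19775, 21629, 19880.4 and 17999 normalized counts in controls and 26529, 23551, 25857 and 26019 in treated libraries. All treated libraries were above all controls, with an LFC of 0.36 (SE 0.075, adjusted p = 0.0365). The other 36 did not pass. The 1 of 37 stands beside 2.09% of all genes tested, and with the gene-length offset 0 of the 37 did. Of the 37 genes, 23 had an LFC above 0, with a median of 0.04, against -0.03 over all genes. In DESeq2, 2 of the 37 passed (*Lrrc7* and *Hdac4*), both higher, beside 7.55% of all genes. At an unadjusted p under 0.05 in edgeR, 7 of the 37 were higher and 2 lower, beside 19.6% of all genes in either direction.

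Among calmodulin and its reservoirs, 0 of 6 genes passed in either edgeR or DESeq2, and 0 had an unadjusted p under 0.05. Their median LFC was -0.06, with the extremes *Calm3*, 1 of the calmodulin genes, at -0.13 (SE 0.078, adjusted p = 0.376) and *Gap43*, a calmodulin-binding growth cone protein, at 0.01 (SE 0.098, adjusted p = 0.985). Among regulators of the kinases, 0 of 5 passed in either tool, and 1 had an unadjusted p under 0.05. That gene was *Camkmt*, the calmodulin-lysine methyltransferase, at 0.23 (SE 0.088, adjusted p = 0.203), and the lowest was *Ppm1f*, a phosphatase that acts on CaMKII, at -0.05 (SE 0.069, adjusted p = 0.712). The list's median was 0.06.

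Among other kinases of the family or with a related domain, 8 of 12 genes were tested and 0 passed in either tool, with 1 at an unadjusted p under 0.05. The median was 0.05, and the extremes were *Cask*, a synaptic scaffold with a CaMK-like domain, at 0.19 (SE 0.063, adjusted p = 0.142) and *Pnck* at -0.10 (SE 0.132, adjusted p = 0.706). The 12 substrates and partners had a median of 0.12, and *Lrrc7* alone passed in edgeR, while *Hdac4* also passed in DESeq2. At an unadjusted p under 0.05, 4 of them were higher and 2 lower, beside 19.6% of all genes in either direction. The lowest was *Prkaa1*, a catalytic subunit of AMP-activated protein kinase, with 1074, 1170 (replicate 2), 1181 and 1227 normalized counts in controls and 1012, 1011, 1012 and 1052 in treated libraries. All treated libraries were below all controls, with an LFC of -0.19 (SE 0.066, adjusted p = 0.162). *Prkaa2*, the other catalytic subunit, named here after its values were seen, had 3287, 3328, 3349 and 2692 normalized counts in controls and 3926, 3589, 3734 and 3352 in treated libraries. All treated libraries were above all controls, with an LFC of 0.21 (SE 0.082, adjusted p = 0.207).

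Of the 6 genes of calcineurin, the calmodulin-dependent phosphatase that opposes many of these kinases, and its regulators, 0 passed in either tool, and 1 had an unadjusted p under 0.05. This was *Ppp3r1*, the regulatory subunit, at 0.21 (SE 0.079, adjusted p = 0.188). The lowest was *Rcan1*, an inhibitor of calcineurin, at -0.11 (SE 0.064, adjusted p = 0.350). The list's median was 0.02.

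**Figure D5:**
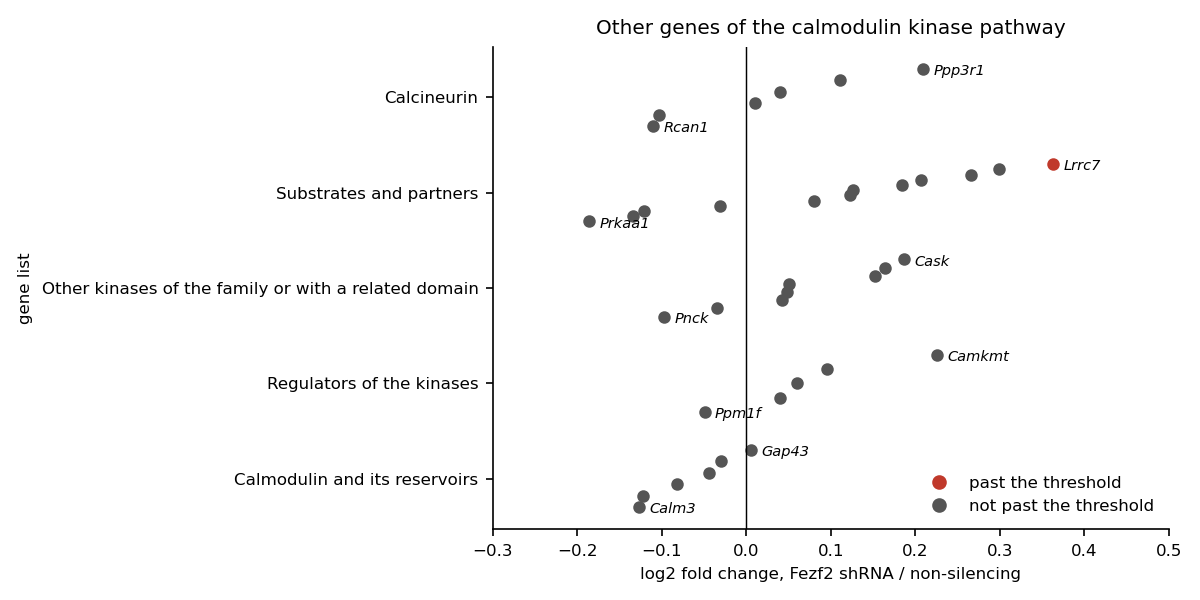
LFC (Fezf2 shRNA over non-silencing shRNA, n = 4 each) of the 37 tested genes of 5 pathway lists, 1 point per gene, with the lowest and highest gene of each list named. Lrrc7, at 0.36, is the only point past the threshold.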

How the data were processed

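Total RNA-seq libraries of M1 from 4 *Fezf2 shRNA* and 4 *non-silencing shRNA* samples were grouped by the titles of the deposited record. It does not say whether each came from a separate animal. The study's paper describes male mice that received either virus, with n = 4 of each. The p-values measure the spread between these samples. The authors mapped reads with TopHat2 2.1.1 to mm10 and counted them per Ensembl transcript with bedtools 2.26.0, and these deposited raw counts were used. Multi-mapping and strand settings were not given in the sources used here. A second table of the authors' own comparison (base means, fold changes, standard errors, test statistics and p-values) was not used.

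Of 94647 transcripts, 91320 were found in GENCODE M21 (GRCm38), and those not found held 1.82% of counts. Each gene was represented by its transcript with the lowest Ensembl number. Genes above 8 CPM in 4 or more libraries were tested with edgeR 4.0.16 (TMM, quasi-likelihood test, Benjamini-Hochberg) in R 4.3.3. To normalize, each count was scaled by the ratio of the mean effective library size to that of its library. Nested intervals of a gene were subtracted, parts with a mean under 100 reads were left out, and 1 read was added to both terms of a ratio. Alternatives used DESeq2 1.42.0, library totals, other filters, a gene-length offset (loess, span 0.3), the replicate number as a block and each library left out. Exact permutation tests were two-sided (scipy 1.17.1). Steps were tested on simulated data. Named genes were the 10 kinase genes, *Fezf2*, the pathway genes past the threshold, the highest and lowest of each pathway list, and the 3 genes most correlated with *Camk2a* and *Camk2d*. The members and lists were chosen with earlier results of these data known.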

Additional observations from a re-analysis of the deposited data

Results flagged for a closer look

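In 2 of 20 sets of 4 libraries (10 kinase genes in each treatment), 1 library lay far from the others by Dixon's ratio, its gap to the nearest library over the range of the group, and chance gives about 1 in 20. *Camk2a* was highest in control replicate 1, at 34524 normalized counts, and the other controls had 29478 to 30331, a ratio of 0.831. Without that library the LFC of *Camk2a* was 0.21 (adjusted p = 0.239, edgeR). *Camkk1* was lowest in *Fezf2 shRNA* replicate 4, at 2446 normalized counts, and the other treated libraries had 2730 (replicate 2) to 2778, a ratio of 0.854. Without that library the LFC of *Camkk1* was -0.09.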

How the results depend on the processing

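The count of 1 kinase gene past the threshold (*Camk2d*) was also found with DESeq2 size factors (adjusted p = 0.0438, edgeR). An adjusted p of at most 0.05 alone also gave 1, but it only drops the LFC cut from the same fit. That setting could not lose *Camk2d*. The count was 0 with library totals (adjusted p of *Camk2d* 0.0866), a filter at 1 CPM (0.0825), no filter (0.103), the widest transcript (0.0824), the gene-length offset, and that offset with the replicate block. It was 2 (*Camk2d* and *Camk1d*) with the DESeq2 Wald test and with an adjusted p of at most 0.1, a looser cut on the same fit. Leaving out each library gave counts of 0 to 1, the 1 being *Camk1d* without *Fezf2 shRNA* replicate 2, and *Camk2d* was lost in all 8 cases. Over all genes, 208 passed, and 752 did with the DESeq2 Wald test, 534 at 0.1, 136 with library totals, 103 without a filter, 84 at 1 CPM, 90 with the block, 2 with each length offset, and 0 (without control replicate 1) to 368 (without control replicate 2) with a library left out.

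Same-numbered libraries had correlations of -0.13 to 0.31 and do not count as pairs; with the replicate block, 0 kinase genes (*Camk2d*: adjusted p = 0.0645), 0 pathway genes and 1 part (*Camk1d*, shorter interval) passed. Parts past the threshold numbered 3 with the widest nested interval, 2 among exonic and intronic parts, and 0 to 1 with a library left out (*Camk1d* without control replicate 2 or *Fezf2 shRNA* replicate 2). Pathway genes numbered 0 with the length offset and 0 to 2 with a library left out. They were 2 (*Lrrc7* and *Grin2b*) without control replicate 2, and *Lrrc7* also passed without *Fezf2 shRNA* replicate 2 and in no other such case.

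The LFC of *Camk4* turned to -0.0747 with the length offset and to -0.0674 with the length offset and the block, and that of *Camkk2* ranged from -0.0562 to 0.0130 with a library left out, above 0 only without control replicate 2. With the widest nested interval the difference in log2 ratio turned to -0.214 in *Camk2b*, -0.0871 in *Camk2d* and -0.0846 in *Camk1*. The cause of these changes was not tested. Of 191 values of single kinase genes, 169 kept their direction and side of the threshold. Most of these belong to genes that did not pass in the first place, and *Camk2d*, which did, kept its side in only 4 of 20 alternatives. Those 4 include the adjusted p alone and the adjusted p of at most 0.1, which are cuts on the same fit that could not lose it. The narrowest part of *Camk2d* rested on 149 normalized counts in controls.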
